A study of Mus musculus with 4 samples.

Results

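Cholesterol is built from acetyl-CoA through mevalonate, isoprenoid diphosphates, squalene and lanosterol, and the genes of this route are induced together by the membrane-bound transcription factors SREBP1 and SREBP2 when cells run short of sterol. Scap escorts the SREBPs to the Golgi for cleavage, and the Insig proteins hold Scap back in the endoplasmic reticulum when sterol is plentiful. In the testis, sterol is needed for membranes, and Leydig cells turn cholesterol into androgens. A list of 26 such genes was followed here, taken by gene symbol. It comprised enzymes of the synthesis route, the SREBP regulators, Stard4, which carries sterol between membranes, and Lpin1, a phosphatidate phosphatase that SREBPs induce. It held no lipoprotein receptor, so sterol uptake from outside the cell is not described. Every probe set (probes that together read 1 transcript region) whose single annotated symbol was on the list was taken. This gave 56 of 45037 probe sets, for 25 of the 26 genes. Acat2, which makes acetoacetyl-CoA, was not analysed here.

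The samples were testes of 129 strain mice taken at 2 days post partum (dpp) and grown as organ cultures for 24 h in medium with 10% fetal bovine serum. The 4 arrays fell into 2 groups of 2, vehicle (dimethyl sulfoxide) and WIN 18,446 at 1 µM, a bis-dichloroacetyl diamine that blocks the enzymes converting retinaldehyde into retinoic acid. Serum, which contains lipoproteins, was in the medium of both groups. Whether arrays of a group came from different animals or cultures is not stated, so the p-values measure the spread between these arrays, which may be technical.

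Values are log2 levels as the authors normalized them, and differences are WIN 18,446 minus vehicle on that scale. The 4 array medians were 3.72 to 3.83, and 46.4% to 46.6% of probe sets reached a level of 5 on each array. A probe set was tested if its mean over the 4 arrays was at least 5, and was called if limma's Benjamini-Hochberg adjusted p over all 20895 tested probe sets was under 0.05. A gene was represented by its tested probe set of highest mean. Brightness depends on the probe set, so levels are not compared between genes. The defining markers of the neonatal testis were present: the Sertoli cell, germ cell and Leydig cell lists had 9 of 9, 5 of 7 and 5 of 7 members tested. Of the tested markers, 4 of 9 Sertoli, 2 of 5 germ cell, 0 of 5 Leydig, 1 of 4 peritubular myoid, 1 of 4 endothelial and 0 of 2 macrophage genes were called lower. Over all genes tested 3.46% were. Of the 2 adipocyte genes tested, 1 (Lpl, lipoprotein lipase) was called higher (2.94% of all genes were). The adipocyte genes Adipoq, Cidec and Pparg lay at means of 2.10, 2.11 and 2.15 and were not tested. No liver or erythroid marker was tested.

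Promoter sequences can hold regulatory elements that genes of a route share. RefSeq promoter windows (build GRCm38.p6, 250 bases before to 50 after a start site) matched 22 of the 26 genes by symbol, in 30 windows. They were searched on both strands for TCACNCCAC, a form of the sterol response element that SREBPs bind, for CCAAT, the box bound by NF-Y, which acts beside SREBPs, and for the E-box CACGTG. Of the 30 windows, 20 held a CCAAT box, against 37.4% of all 32851 windows in the table. By gene, 86.4% of the 22 held one in at least 1 window, against 41.1% of all genes in the table and 43.3% of the array-tested genes with a window. TCACNCCAC was found for 1 of the 22 genes, Hmgcs1, against 1.44% of all genes, and CACGTG for 5 of 22 (22.7%), against 8.09%. Of the array-tested genes with a window, 1.38% held the former and 12.1% the latter. These matches describe the letters of the windows and are not shown to be sites. The windows printed here are those of Hmgcs1, the member with the sterol response element match, and of Mvd and Hsd17b7, a pair with large differences on the arrays, each 5′ to 3′ in the direction of the gene. Capitals mark the matches on either strand: the sterol response element in Hmgcs1, the E-box in Hsd17b7 and the CCAAT box in each. Pmvk, the gene with the largest difference by representing probe set, is not printed: 1 of its 2 windows held 1 CCAAT box and the other no match. A link between matches and differences was not tested.
Hmgcs1, chr13:119690101-119690400, plus strand: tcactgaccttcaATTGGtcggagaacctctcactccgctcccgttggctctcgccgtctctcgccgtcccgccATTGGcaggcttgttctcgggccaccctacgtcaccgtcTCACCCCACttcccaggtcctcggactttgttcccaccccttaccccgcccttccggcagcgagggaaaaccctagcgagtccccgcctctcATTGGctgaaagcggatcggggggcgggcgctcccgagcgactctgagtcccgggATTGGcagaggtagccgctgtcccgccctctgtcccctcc
Mvd, chr8:122443373-122443672, minus strand: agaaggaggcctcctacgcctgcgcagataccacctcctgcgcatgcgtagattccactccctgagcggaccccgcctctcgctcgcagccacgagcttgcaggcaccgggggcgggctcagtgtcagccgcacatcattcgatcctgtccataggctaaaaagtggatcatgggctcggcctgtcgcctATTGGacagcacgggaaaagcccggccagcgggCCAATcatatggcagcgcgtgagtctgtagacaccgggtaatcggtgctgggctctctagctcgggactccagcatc
Hsd17b7, chr1:169969156-169969455, minus strand: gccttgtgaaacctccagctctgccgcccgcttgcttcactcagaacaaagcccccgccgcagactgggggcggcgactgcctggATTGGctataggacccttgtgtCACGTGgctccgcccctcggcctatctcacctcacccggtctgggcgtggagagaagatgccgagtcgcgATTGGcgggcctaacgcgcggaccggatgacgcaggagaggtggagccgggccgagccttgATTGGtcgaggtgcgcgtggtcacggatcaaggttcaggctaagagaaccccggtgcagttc

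The cholesterol synthesis genes sat slightly lower with WIN 18,446, and almost none of the single differences passed the test. Pmvk, phosphomevalonate kinase, was the 1 member called, and fell to 69.9% of its vehicle level. All 25 genes had a tested probe set. Of them 24 had a mean below vehicle, against 54.8% of the 10970 genes tested, and 15 (60.0%) had both treated arrays below both vehicle arrays, against 31.8% of all genes. None had both treated arrays above both vehicle arrays, against 24.8% of all genes. In limma 1 of 25 was called lower (3.46% of all genes were) and 0 were called higher (2.94% of all genes). The share with an unadjusted p under 0.05 was 24.0% (6 of 25), near the 25.03% of all genes. The median difference was -0.13 over the members and -0.02 over all genes, which is 91.3% of vehicle for the members. The sizes were small: 0 of 25 differed 2-fold or more, against 5.22% of all genes, and 11 (44.0%) were lower by at least 10%, against 30.2% of all genes. In bulk tissue, fewer cells of a type and less RNA per cell cannot be told apart.

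**Figure D1:**
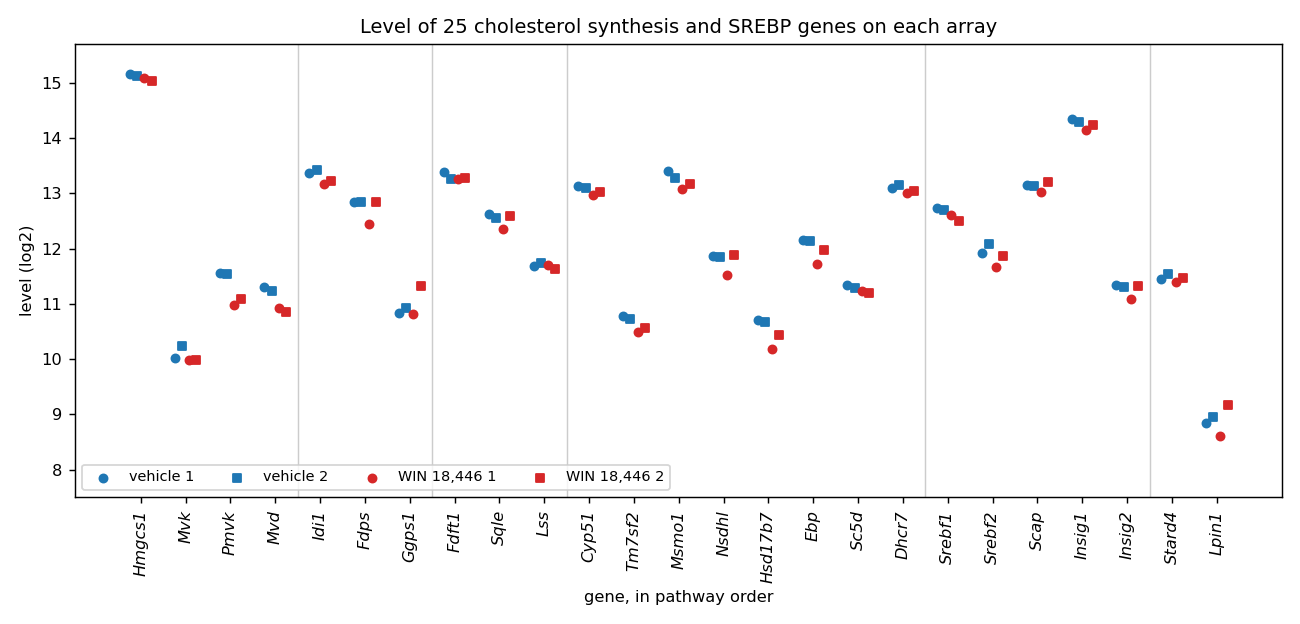
Level (log2, vertical axis) of the 25 genes on each of the 4 arrays, in pathway order from left to right, with grey lines between the steps. Blue marks are vehicle and red marks WIN 18,446. Both red marks lie below both blue marks for 15 genes, and the gaps are small beside the range of levels.

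Among the early mevalonate steps, Pmvk and Mvd had larger differences by representing probe set than Hmgcs1 and Mvk. Hmgcs1, the cytosolic HMG-CoA synthase, read 15.15 and 15.12 with vehicle and 15.09 and 15.03 with WIN 18,446. The treated arrays were both lower, by a mean of 0.08 (difference -0.08, SE 0.04, adjusted p = 0.397 in limma). Its probe sets differed in size: the other 4 gave -0.12, -0.18, -0.42 and -0.09. In 4 of the 5 both treated arrays lay below both vehicle arrays, as in 29.3% of all probe sets. Without treated array 2, the probe set at -0.42 was called (difference -0.63, adjusted p = 0.0211 in limma).

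Mvk, mevalonate kinase, read 10.01 and 10.24 with vehicle and 9.98 and 9.99 with WIN 18,446 (difference -0.14, adjusted p = 0.611 in limma). Its second probe set differed by 0.08 in the other direction, so the 2 readings of the gene had opposite signs.

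Pmvk catalyses the next phosphorylation. Its single probe set read 11.56 and 11.54 with vehicle and 10.98 and 11.08 with WIN 18,446. The groups lay well apart, and each pair of arrays was close together. Means were 11.55 ± 0.01 (SD, n = 2) and 11.03 ± 0.07, and Pmvk fell by 0.52 on the log2 scale (95% confidence interval -0.75 to -0.28, SE 0.09, adjusted p = 0.0468 in limma). Over all probe sets 5.18% were called, and of the 48 tested member probe sets this was the 1 called. The call sat at the threshold: the adjusted p was 0.351 without vehicle array 1, 0.276 without vehicle array 2, 0.0921 without treated array 1 and 0.0528 without treated array 2, while the difference lay between -0.57 and -0.47. It was also lost with equal array medians (0.0553), no variance trend (0.0907), no level filter (0.116) and the replicate number as a block (0.0565).

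Mvd, the decarboxylase that makes isopentenyl diphosphate, read 11.30 and 11.23 with vehicle and 10.93 and 10.85 with WIN 18,446. Again both treated arrays were lower, to 77.01% of vehicle (difference -0.38, 95% confidence interval -0.63 to -0.13), and the gene was not called (adjusted p = 0.103 in limma). Its second, dimmer probe set read 9.51 and 9.65 with vehicle against 9.12 and 8.89, a difference of -0.58 (adjusted p = 0.119 in limma). Both readings of Mvd thus went the same way without overlap. Across the 4 tested genes of this step the median difference was -0.26, and both treated arrays lay below both vehicle arrays in each, as in 31.8% of all genes.

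Of the isoprenoid enzymes, Idi1, the isomerase that gives dimethylallyl diphosphate, read 13.37 and 13.42 with vehicle and 13.17 and 13.22 with WIN 18,446. Both treated arrays were lower, at 86.9% of vehicle (difference -0.20, 95% confidence interval -0.36 to -0.05, adjusted p = 0.141 in limma). Its second probe set differed by -0.10 and its groups overlapped. Fdps, farnesyl diphosphate synthase, stands at the branch point towards sterols and prenyl groups. It read 12.84 on both vehicle arrays, 12.45 on treated array 1 and 12.84 on treated array 2, so its difference of -0.19 rested on 1 array and was 0.0038 without it. Ggps1, which extends farnesyl to geranylgeranyl diphosphate for protein prenylation and so leads away from cholesterol, was the member with a higher mean. It read 10.83 and 10.92 with vehicle and 10.81 and 11.31 with WIN 18,446 (difference 0.19, adjusted p = 0.608 in limma). The treated arrays straddled the vehicle arrays, and its other 3 probe sets gave 0.13, -0.17 and 0.03.

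Among the synthesis steps, those from squalene to lanosterol had the smallest median difference by representing probe set (-0.05). Fdft1, squalene synthase, read 13.38 and 13.25 with vehicle and 13.26 and 13.27 with WIN 18,446, all within the range of the vehicle arrays (difference -0.05, 95% confidence interval -0.23 to 0.13). Sqle, squalene monooxygenase, a second control point of the route, differed by -0.11 (95% confidence interval -0.36 to 0.14), and Lss, lanosterol synthase, by -0.04 (-0.26 to 0.17). In these representing probe sets the groups overlapped for all 3 genes, and adjusted p-values in limma were 0.574 to 0.814. Their intervals leave room for falls of up to about 0.36 log2 units. The other tested probe sets gave -0.007 for Fdft1 and -0.12 and -0.15 for Lss. In the last of these both treated arrays lay below both vehicle arrays (adjusted p = 0.495 in limma).

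Lanosterol is then demethylated, reduced and isomerised to cholesterol by 8 of the enzymes followed, and none was called in limma. All 8 had lower means (54.8% of all genes did) and 7 had both treated arrays below both vehicle arrays (31.8% of all genes), with a median difference of -0.19. Hsd17b7, the keto reductase of the demethylation complex, read 10.72 and 10.68 with vehicle and 10.18 and 10.44 with WIN 18,446. It stood at 76.4% of vehicle (difference -0.39, 95% confidence interval -0.72 to -0.05, adjusted p = 0.178 in limma), with treated array 1 the lower. This reading rests on a single probe set: the others of Hsd17b7 had means of 4.10, 3.03 and 1.97 and were not tested.

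Ebp, the sterol isomerase, read 12.16 and 12.14 with vehicle and 11.72 and 11.98 with WIN 18,446. It too was lower on both treated arrays and lowest on treated array 1 (difference -0.30, 95% confidence interval -0.58 to -0.02, adjusted p = 0.198 in limma). Tm7sf2, a sterol reductase, read 10.77 and 10.73 against 10.50 and 10.57 (difference -0.22, 95% confidence interval -0.49 to 0.05). Msmo1, the methyl oxidase, was at 86.6% of vehicle (difference -0.21, 95% confidence interval -0.40 to -0.02, adjusted p = 0.199 in limma).

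The remaining enzymes of this stretch showed smaller or less even differences. Cyp51, the lanosterol demethylase, differed by -0.13 in its representing probe set, by -0.09 in another and by -0.64 in its dimmest, which read 6.96 and 7.23 with vehicle and 6.33 and 6.59 with WIN 18,446 (adjusted p = 0.192 in limma for the dimmest). Sc5d, the sterol desaturase, differed by -0.09, and its dimmer probe set read 8.80 and 8.87 with vehicle against 7.84 and 8.66, a gap made mostly by treated array 1. Dhcr7, the reductase of the last step, differed by -0.10 (95% confidence interval -0.25 to 0.06). Nsdhl, the decarboxylating dehydrogenase, read 11.87 and 11.85 with vehicle, 11.51 on treated array 1 and 11.88 on treated array 2, so that its groups overlapped and without treated array 1 its difference was 0.02.

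**Figure D2:**
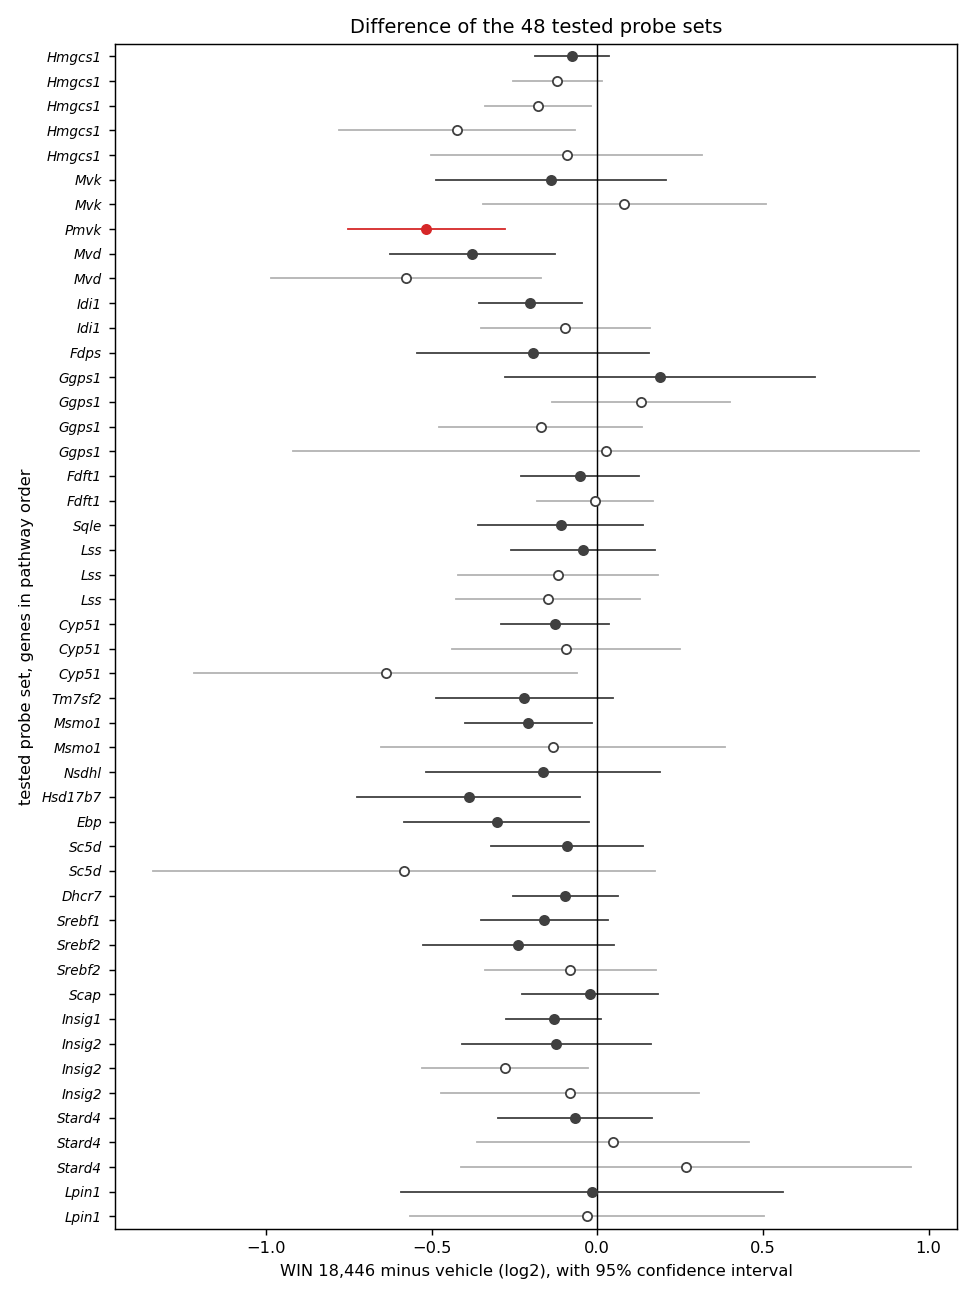
WIN 18,446 minus vehicle (log2, horizontal axis) for the 48 tested probe sets, in pathway order from top to bottom. Filled points represent the gene, open points are its other probe sets, lines are 95% confidence intervals from limma and red marks the called probe set of Pmvk. Points left of the vertical line are lower with WIN 18,446, as 42 of the 48 are.

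The 5 regulators of the route had lower means (54.8% of all genes did), with differences from -0.24 to -0.02, and were not called in limma. Both treated arrays lay below both vehicle arrays for 3 of the 5 (31.8% of all genes), and the groups overlapped for Scap and Insig2. Srebf2, which encodes the SREBP that acts mainly on cholesterol genes, read 11.91 and 12.09 with vehicle and 11.66 and 11.86 with WIN 18,446. Its groups did not overlap but came within 0.05 log2 units of each other (difference -0.24, 95% confidence interval -0.53 to 0.05, adjusted p = 0.305 in limma), and its second probe set differed by -0.08 with overlap. Srebf1, whose products act mainly on fatty acid genes, differed by -0.16 (95% confidence interval -0.35 to 0.03).

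Insig1, itself an SREBP target and often used as a readout of SREBP activity, read 14.34 and 14.30 with vehicle and 14.14 and 14.23 with WIN 18,446. Both treated arrays were lower, at 91.3% of vehicle (difference -0.13, 95% confidence interval -0.27 to 0.01, adjusted p = 0.256 in limma). Insig2 differed by -0.12, -0.28 and -0.08 in its 3 probe sets. Both treated arrays lay below both vehicle arrays in 1 of them (29.3% of all probe sets). Scap differed by -0.02 (95% confidence interval -0.23 to 0.18). Stard4 gave -0.07 in its representing probe set and 0.05 and 0.27 in the others, and Lpin1 gave -0.02 and -0.03, with treated arrays on either side of the vehicle mean (-0.29 and 0.26).

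Counting probe sets rather than genes, 48 of the 56 were tested, with mean levels from 6.78 to 15.10. The other 8, of Fdft1, Fdps, Hsd17b7, Sc5d and Scap, had means of at most 4.10. Of the 48 tested, 42 were lower (53.5% of all probe sets were) and 24 had both treated arrays below both vehicle arrays (29.3% of all probe sets). With an unadjusted p under 0.05 there were 11 of 48, or 22.9%, against 22.01% of all probe sets. Of the 14 genes with several tested probe sets, 11 had 1 sign throughout, and Mvk, Ggps1 and Stard4 had both. Probe sets of 1 gene share their transcripts and are not replicates.

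The treated arrays differed in how far the genes moved. Treated array 1 lay below the vehicle mean for 25 of 25 genes, with a median difference of -0.22, and treated array 2 for 19 of 25, with a median of -0.10. Over all genes the shares below were 55.1% and 53.1%, with medians of -0.03 and -0.02. Treated array 1 read below treated array 2 for 20 of the 25 members, against 54.8% of all genes tested. With treated array 1 left out, 19 of 25 members were lower, 16 had treated array 2 below both vehicle arrays (43.2% of all genes did), and the median was -0.10. With treated array 2 left out, 23 lay below both vehicle arrays (46.3% of all genes) and the median was -0.22. Against the vehicle mean, 6 genes (Pmvk, Mvd, Idi1, Tm7sf2, Hsd17b7 and Ebp) were lower by at least 0.17 on each treated array. That cut was not set beforehand, and the share of all genes that pass it was not counted, so the 6 have no background beside them.

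**Figure D3:**
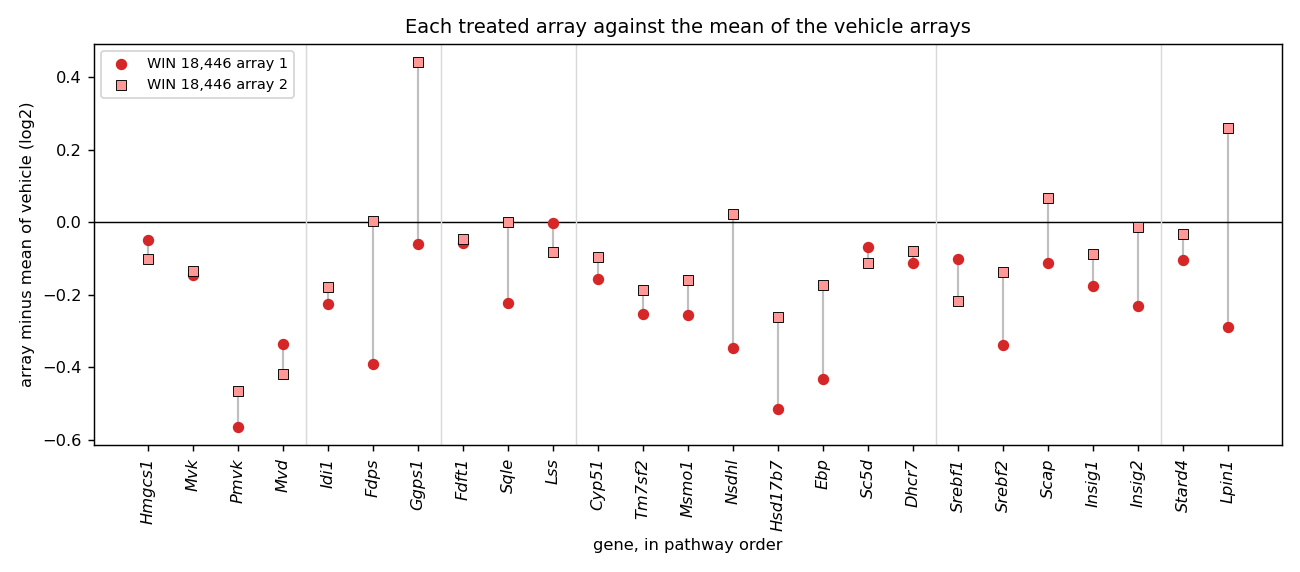
Each treated array minus the mean of the vehicle arrays (log2, vertical axis) for the 25 genes in pathway order. Circles are treated array 1, squares treated array 2, and grey bars join them. Circles lie below zero for 25 genes and squares for 19, with the widest gaps at Lpin1, Ggps1, Fdps and Nsdhl.

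Some of the cell type markers also differed between the groups. The mean level of the 9 Sertoli markers was 12.13 and 12.16 with vehicle and 11.83 and 11.62 with WIN 18,446. Of the 9, 6 were lower and 3 higher: Sox9 differed by -1.15 and Cldn11 by -1.25, whereas Amh differed by 1.25 and Inhbb by 0.15, both above vehicle on both treated arrays, and Gata4 by 0.02. That of the 4 tested endothelial markers (of 7 listed) was 8.59 and 8.998 against 7.87 and 7.63, and that of the 5 tested Leydig markers, the steroid-making cells of the testis, 12.21 and 11.87 against 11.84 and 11.62. For the 25 cholesterol genes the mean level was 12.12 on both vehicle arrays, 11.90 on treated array 1 and 12.03 on treated array 2. The 5 tested germ cell markers averaged 12.10 and 11.96 against 11.79 and 11.84, a lower mean carried by Tdrd9 (-1.02) and Sall4 (-0.60). The other 3 were higher (Ddx4 0.24, Dazl 0.29 and Mael 0.02), and the list median was 0.02. The 4 tested peritubular markers averaged 10.97 and 11.14 against 10.56 and 10.37. By list mean, treated array 1 was the lower for the cholesterol genes and the germ cell, macrophage and adipocyte markers. Treated array 2 was the lower for the Sertoli, endothelial, Leydig and peritubular markers. Among the Sertoli markers this gap was widest for Gata1 (7.9 on treated array 1 and 6.5 on treated array 2) and Amh (11.1 and 10.6). Sox9, Fshr and Inhbb were instead lower on treated array 1, and the remaining Sertoli markers were lower on treated array 2 by smaller amounts. The 2 tested adipocyte markers (of 7), Fabp4 and Lpl, averaged 9.29 and 10.71 with vehicle against 11.79 and 11.90. Fabp4 read 6.13 and 8.87 with vehicle against 10.1 and 10.4, and Lpl 12.46 and 12.55 against 13.47 and 13.39. Adipoq, Cidec and Pparg of that list had means of 2.10, 2.11 and 2.15 and were not tested. The 2 tested macrophage markers (of 7) averaged 6.87 and 7.29 with vehicle against 6.54 and 7.52. The part of cell composition in the differences was not tested.

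Related lipid genes give the surroundings of these values. Of 19 tested genes of fatty acid synthesis, the other main arm of SREBP control, 15 were lower and 9 did not overlap in that direction (47.4%, against 31.8% of all genes), with a median of -0.11. In limma 0 were called lower and 1 higher (3.46% and 2.94% of all genes were). Of the 19, 7 had an unadjusted p under 0.05 in limma, against 25.03% of all genes. Elovl2, an elongase of polyunsaturated fatty acids, rose from 12.97 on both vehicle arrays to 13.46 on both treated arrays (difference 0.49, SE 0.06, adjusted p = 0.0211 in limma). Elovl6, an elongase of saturated fatty acids, differed by -0.43 (adjusted p = 0.0568 in limma). The desaturase Fads2 read 12.97 and 12.99 with vehicle against 12.35 and 12.60 (difference -0.51, adjusted p = 0.0591 in limma), and Fasn, fatty acid synthase, named after its values were seen, differed by -0.22 (adjusted p = 0.0802 in limma).

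Genes that handle finished sterol or use its precursors had medians near that of all genes. For sterol trafficking, storage and efflux, 12 of 21 tested genes were lower, with a median of -0.05, and 0 were called in limma. There 4 had an unadjusted p under 0.05, against 25.03% of all genes. The smallest p-values there were those of Mylip, a ligase that degrades lipoprotein receptors (difference 0.97, adjusted p = 0.089 in limma), Vldlr, a lipoprotein receptor (0.51, adjusted p = 0.135), and Scarb1, which takes up sterol from high density lipoprotein (-0.20, adjusted p = 0.193). For protein prenylation and the dolichol and ubiquinone branches, 7 of 14 were lower. Groups did not overlap for 0 of the 14 in the lower direction and for 2 in the higher direction (31.8% and 24.8% of all genes), and 0 were called in limma (0 also at an unadjusted p under 0.05). Rabggtb (0.14), Rabggta (-0.23), both subunits of a prenyl transferase for Rab proteins, and Fnta (-0.08), a farnesyl transferase subunit, had the smallest p-values. The list of SREBP processing and sterol-sensing degradation also held genes outside those roles, such as Cyb5r3, Cyb5b and Erg28. Of its 13 tested genes 6 were lower, with a median of 0.0005, and 0 were called in limma (0 also at an unadjusted p under 0.05). Cyb5r3 (-0.25), Erlin1 (0.19) and Erlin2 (-0.18) came first by p. The difference between the lists was not tested.

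**Figure D4:**
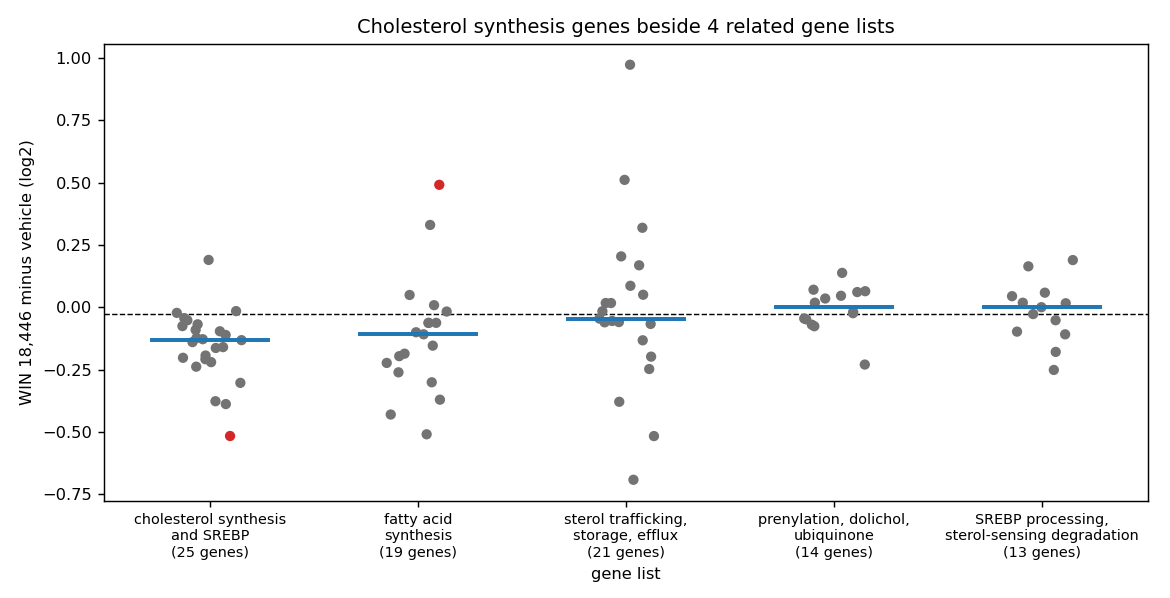
WIN 18,446 minus vehicle (log2, vertical axis) for each tested gene of 5 lists. Each point is a gene, red points were called (Pmvk and Elovl2), blue bars are list medians and the dashed line is the median of all genes tested (-0.02). The medians are -0.13 for cholesterol synthesis and SREBP genes and -0.11 for fatty acid synthesis.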

How the data were processed

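RNA of 4 testis culture samples was amplified, labelled and hybridised to 1 array each, per the labels' protocols. The deposited table holds log2 levels, 1 per probe set and array. RMA and GCRMA, which both correct background and normalize, appear in the list of tools per the submitters' processing notes, and which of them made the table is not stated. The log2 scale was read from the values. Coordinates and gene names come from RefSeq (GRCm38.p6) and GEO's array annotation, in which 34945 probe sets have 1 symbol, 34741 of them matched by gene ID.

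The 64 control probe sets were left out. Differences were tested in R 4.3.3 by limma 3.58.1 (lmFit and eBayes, variance trend, two-sided, 2 residual and 3.19 prior degrees of freedom). The fit was tested on simulated data first, where more of the calls were false than the threshold names and changes as small as most of the members' were seldom called. With an array left out, the lone array of its group is given the spread of the other group. Members and lists were chosen with earlier results of these data known. Named genes are every member and, for each related list, called genes and the 3 of smallest p.

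Array values are printed for the called member, the 6 of largest difference, the 4 of highest level and some chosen after their values were seen. The number of arrays limits the precision. The alternatives were other level filters, scalings, variance models, thresholds and gene values, the block and each array left out. Listed genes with no single-symbol probe set in the annotation were not analysed here.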

Additional observations from a re-analysis of the deposited data

How the results depend on the processing

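With 2 arrays per group, small differences are at the limit of what the design can call. The median difference of the members was -0.22 without treated array 2 and -0.10 without treated array 1, and between -0.17 and -0.12 under the other alternatives. Members called in limma, 1 gene and 1 probe set (Pmvk), were 0 with equal array medians, with no level filter, with no variance trend and with the replicate number as a block (unadjusted p under 0.05 in 5, 6, 3 and 6 genes). With each array left out, 0 genes (1 to 11 unadjusted) and 0 to 1 probe sets were called. Over all tested probe sets 1083 were called, 2216 at an adjusted p under 0.10, 3 with no level filter, 372 with no variance trend, 1467 with the replicate block and 0 to 1398 with each array left out (2455 and 2820 at an unadjusted p under 0.05 for the zeros, without vehicle array 1 and 2). The counts of lower and of non-overlapping members, alternatives added after the data were seen, were 19 to 25 and 16 to 23 with each array left out. Over all genes the non-overlapping share also rose, from 31.8% to 38.9% without vehicle array 1 (17 members), 44.1% without vehicle array 2 (18), 43.2% without treated array 1 (16) and 46.3% without treated array 2 (23). The sign of 8 uncalled members turned under at least 1 alternative: with each array left out the difference ran from -0.118 to 0.0145 for Fdft1, -0.391 to 0.0038 for Fdps, -0.0607 to 0.441 for Ggps1, -0.289 to 0.258 for Lpin1, -0.347 to 0.0211 for Nsdhl, -0.112 to 0.0676 for Scap and -0.223 to 0.00053 for Sqle; Lpin1 was 0.0439 after quantile normalization again, and Stard4 0.0826 as the mean over its probe sets. The cause was not tested. Of 350 member values under alternatives, 332 kept sign and call, 8 lost the call and 10 turned sign. Whether same-numbered arrays of the groups were paired is not stated. The correlation of their deviations was 0.014, which cannot settle it with 2 arrays per group. The replicate block changed the call of Pmvk and of no other member.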
